A study of Bos taurus with 3 samples.

Results

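The mature miRNAs of cattle numbered 11900 to 12099 were described in bovine milk-derived extracellular vesicles (BM-EVs). They were taken by name alone, as the entries in which a number from 11900 to 12099 follows miR-, with any suffix, and 80 of the 745 mature miRNAs listed in at least 1 library belonged to them. The lowest number found was 11971 and the highest was 12064. The BM-EVs were isolated via salting-out with ammonium sulfate from skimmed, pasteurized cow's milk bought at retail, and their small RNA was sequenced. The 3 libraries formed 1 group, untreated BM-EVs of normal milk, each made from 100 ng of total RNA, and there was no control or comparison group. The paper characterized BM-EVs with 3 milk samples that had different expiration dates, which it named biological replicates. Which milk gave which library was not stated, nor were the breed, age and number of the cows. The spread given here is therefore that between these libraries and may be partly technical.

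Mature miRNAs are short RNAs cut from a hairpin precursor, and they guide Argonaute proteins to messenger RNAs, mostly through the seed near their 5′ end. miRBase numbers miRNAs in the order of their registration, so that a high number marks a late entry and says nothing of kinship between the miRNAs. Milk vesicles are released largely by mammary epithelial cells, and the vesicle membrane is known to shield small RNAs from nucleases. No function is established here for any of these miRNAs from these data alone, so they are ordered by their level and then by the genes in which they lie. Their mature sequences were not used here.

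Each library carried unique molecular indices (UMIs), so that PCR copies of a molecule were counted once. The libraries held 77225 to 373239 mature miRNA UMIs and 863833 to 1937450 UMIs of other small RNAs matched to Rfam. Library 2 was the deepest and had the largest part of its UMIs in mature miRNAs, 16.2% against 7.08% in library 1 and 10.6% in library 3. Every listed entry had at least 11 UMIs, so an unlisted name had at most 10 UMIs in that library and is not known to be absent.

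Of the 80 miRNAs, 57 were listed in library 1, 70 in library 2 and 68 in library 3, and 51 were listed in all of them. This is 63.7% of the names, beside 57.7% (384 of 665) for all other listed miRNAs. A further 13 were listed in 2 libraries and 16 in 1 library. Of those found in a single library, library 2 held 8, library 3 held 7 and library 1 held 1. The miRNAs that were not listed everywhere were all scarce, with between 11 and 34 UMIs where they were listed. The 23 names missing from library 1 could hold at most 230 UMIs there, or 0.298% of its mature miRNA UMIs, and the bound was 0.0268% in library 2 and 0.118% in library 3.

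As a group, these miRNAs made up 10.7% of the names but a smaller part of the molecules. They held 4076, 7899 and 4543 UMIs in libraries 1, 2 and 3. The share of the mature miRNA UMIs was 5.28% in library 1 (Wilson 95% interval 5.12 to 5.44), 2.12% in library 2 (2.07 to 2.16) and 4.45% in library 3 (4.33 to 4.58), with a mean of 3.95% ± 1.64 (SD, n = 3 libraries). Library 2 was therefore the lowest, and no pair of these intervals overlapped. Wilson intervals cover counting error only. Measured against all mature miRNA and Rfam UMIs, the share was 0.374%, 0.342% and 0.470% in libraries 1, 2 and 3, and the mean was 0.395% ± 0.0669. On this scale library 2 was still the lowest, but the libraries lay closer together. The part that the mature miRNA fraction of each library plays in this was not tested.

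Other cattle miRNAs of high number were also lowest in library 2 by share of the mature miRNA UMIs. Names from miR-2286 to miR-2489 and from miR-2881 to miR-2904 held 5.17% ± 2.22, with 6.45%, 2.61% and 6.45% in libraries 1, 2 and 3. The cattle miR-2284 and miR-2285 family held 1.06% ± 0.527, with 1.02%, 0.550% and 1.60%. Against all mature miRNA and Rfam UMIs, the first of these sets was still lowest in library 2, at 0.457%, 0.422% and 0.682% in libraries 1, 2 and 3. The miR-2284 and miR-2285 family was then lowest in library 1, at 0.0723%, 0.0889% and 0.169%. Since 3 libraries allow no two-sided p under 0.25 in an exact sign permutation test, no difference between the groups was tested.

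**Figure D1:**
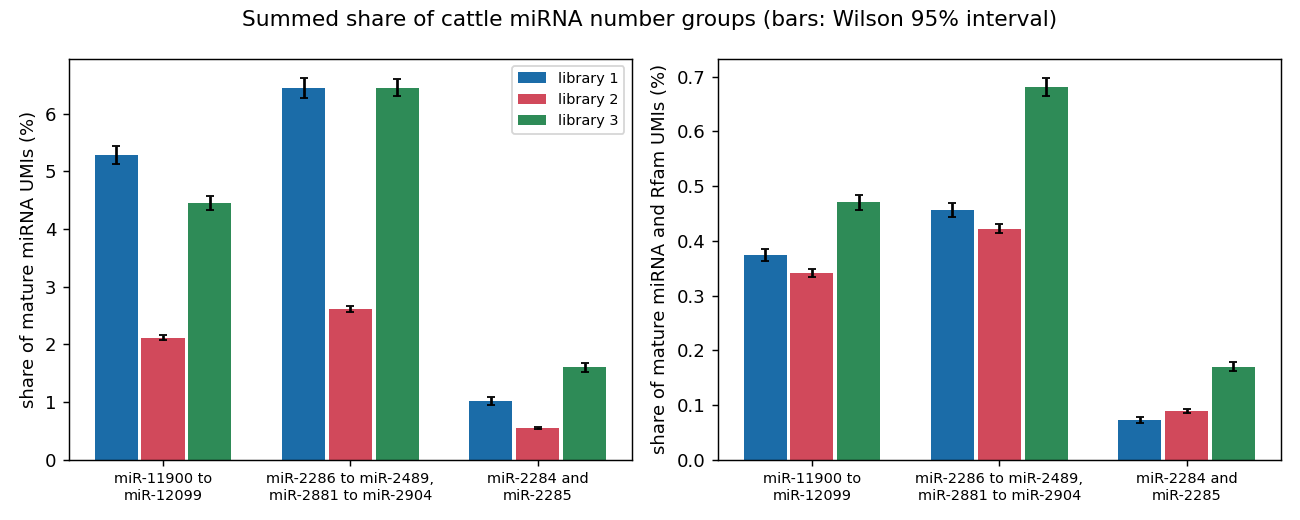
Summed share of 3 number groups of cattle miRNAs in each library, as percent of the mature miRNA UMIs (left) and of all mature miRNA and Rfam UMIs (right), with bars of the Wilson 95% interval. In the left panel each group is lowest in library 2, and the miR-11900 to miR-12099 group stands at 5.28%, 2.12% and 4.45%.

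The UMIs of the group were concentrated in a few members. The leading 3, miR-11976, miR-11975 and miR-11980, held 44.6% ± 5.82 of the group's UMIs over the 3 libraries, the leading 10 held 66.8% ± 5.22 and the leading 20 held 80.2% ± 3.45. The other 60 together held 1.02%, 0.349% and 1.04% of the mature miRNA UMIs in libraries 1, 2 and 3. Most members had few molecules. The median listed member had 27, 27 and 23.5 UMIs in libraries 1, 2 and 3, and only 8, 14 and 10 members reached 100 UMIs. By mean share over all miRNAs, 1 member was among the 20 highest, 4 among the 50 highest and 11 among the 100 highest.

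**Figure D2:**
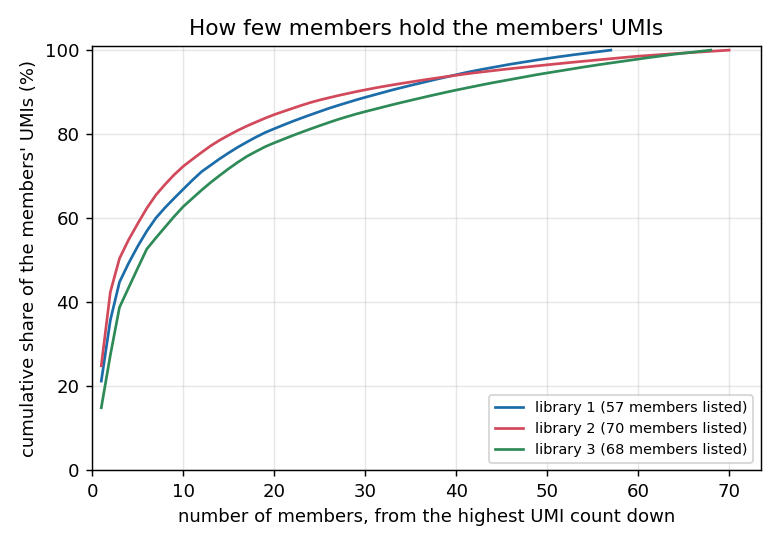
Cumulative percent of the group's UMIs against the number of members, counted from the highest UMI count down, with 1 line per library. The lines climb steeply and flatten, and the listed members number 57, 70 and 68 in libraries 1, 2 and 3.

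MiR-11976 was the most abundant member in every library. It had 865, 1965 and 676 UMIs in libraries 1, 2 and 3, which are shares of 1.12%, 0.526% (Wilson 95% interval 0.504 to 0.550) and 0.662% (0.614 to 0.714). The mean was 0.770% ± 0.311 (n = 3), and it ranked 12, 25 and 17 among all miRNAs of libraries 1, 2 and 3. Its share was thus high in library 1 and lower in the others. Counted per 1000000 mature miRNA and Rfam UMIs, it had 793, 850.4 and 699.9, a mean of 781 ± 76.0, and library 2 was then the highest. Its only matched gene in the annotation used, MIR11976-1, lies within PATZ1, which encodes a zinc finger transcription factor. Whether all its UMIs come from this copy was not tested.

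MiR-11975 followed with 592, 1388 and 515 UMIs in libraries 1, 2 and 3. Its shares were 0.767%, 0.372% and 0.505%, with a mean of 0.548% ± 0.201. Per 1000000 mature miRNA and Rfam UMIs, it had 543, 601 and 533, and its coefficient of variation of 6.53% on this scale was the lowest of the 51 members listed in every library. MiR-11975 lay below miR-11976 in 3 of 3 libraries, by 0.48 ± 0.079 on the log2 scale. Its gene lies within MIA3, whose protein helps to load large cargo such as collagen at the exit sites of the endoplasmic reticulum.

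MiR-11980 was unlike the first pair. It had 368, 628 and 570 UMIs in libraries 1, 2 and 3, and its shares of 0.477%, 0.168% and 0.559% gave a mean of 0.401% ± 0.206. It was the second member of library 3, where it lay above miR-11975, and the third of libraries 1 and 2. Per 1000000 mature miRNA and Rfam UMIs it had 337, 272 and 590.1. Its gene lies within BRAT1, named for its binding to BRCA1 and linked to the activation of the ATM kinase.

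Below these came miR-11984 and miR-11981. MiR-11984 had 183, 303 and 211 UMIs (0.175% ± 0.0826), and its gene lies within NOM1, which encodes a nucleolar protein. MiR-11981 had 164, 197 and 208 UMIs (0.156% ± 0.0898), and its gene lies within GPAM, the enzyme that opens glycerolipid synthesis by acylating glycerol-3-phosphate. Both were lowest in library 2 by share, while their Wilson intervals in libraries 1 and 3 overlapped. MiR-12023, in the gene of the lysosomal membrane protein GPR137, had 148, 351 and 107 UMIs (0.130% ± 0.0535). Its shares in libraries 2 and 3, 0.0940% and 0.105%, had overlapping intervals and lay below the 0.192% of library 1. MiR-11987, in no annotated gene, had 91, 182 and 212 UMIs (0.125% ± 0.0797) and was highest in library 3.

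The next 13 of the leading 20 had mean shares between 0.0389% and 0.106%. MiR-11989, within the gene of the endosomal membrane protein TM9SF1, had 127, 132 and 120 UMIs, nearly the same number in libraries of very different depth. MiR-11972, within BIRC6, an inhibitor of apoptosis, had 100, 249 and 88 UMIs, and miR-12030, within a long non-coding RNA gene, had 87, 291 and 89. Both had their highest raw count in library 2 and their highest share in library 1. MiR-12057, within RAB4B, a small GTPase of endosome recycling, had 63, 107 and 115 UMIs. MiR-11985, within PARVB, a protein of integrin adhesions, had 82, 128 and 69. MiR-12055, within the uncharacterized gene LOC132346145, had 63, 124 and 64.

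The rest of the leading 20 differed in which library was highest. MiR-12048, within APLN, the gene of the peptide hormone apelin, had 88, 95 and 51 UMIs in libraries 1, 2 and 3, and miR-12015, within the potassium and chloride cotransporter gene SLC12A7, had 50, 91 and 29. These were highest in library 1 by share. MiR-12011, within PHLDB1, had 37, 42 and 116, miR-12009, within the chromatin remodeling gene BICRAL, had 44, 73 and 83, and miR-11977, in no annotated gene, had 21, 53 and 77. These were highest in library 3 by share. MiR-12034, within the sorting nexin gene SNX5, had 58, 159 and 39, and miR-11996, within INHBA, the gene of the activin A subunit, had 55, 37 and 42. The last was the only one of the leading 20 with its lowest raw count in the deepest library.

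**Figure D3:**
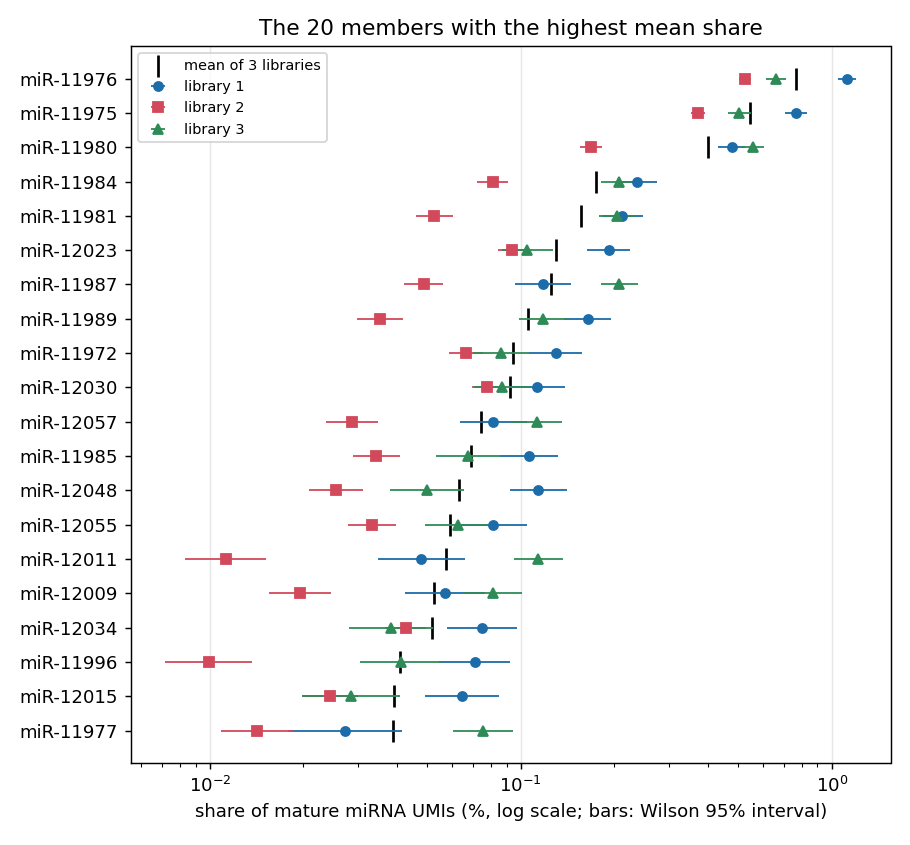
Share of the mature miRNA UMIs on a log axis for the 20 members with the highest mean share, with 1 point per library, bars of the Wilson 95% interval and a black tick at the mean of 3 libraries. Library 2 gives the lowest point for 19 of these members, the exception being miR-12034, and miR-11976 runs from 0.526% to 1.12%.

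The order of the leading members was only partly the same between libraries. Of the 19 pairs of neighbours by mean share among the leading 20, 3 kept their order in every library, namely miR-11976 over miR-11975, miR-11980 over miR-11984, and miR-11984 over miR-11981. The order held in 2 of 3 libraries for 11 pairs and in 1 of 3 for 5 pairs. No pair can pass the exact sign permutation test, whose smallest two-sided p with 3 libraries is 0.25, and the smallest adjusted p over the 19 pairs was 1. Of the 10 highest members of each library, 7 were common to all 3 libraries, the group of miR-11975, miR-11976, miR-11980, miR-11981, miR-11984, miR-11987 and miR-12023.

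Over a wider range the libraries ranked the members alike. Spearman's rho of the UMIs was 0.82 between libraries 1 and 2 (54 members listed in both), 0.83 between libraries 1 and 3 (53 members) and 0.84 between libraries 2 and 3 (59 members). For all other miRNAs it was 0.78, 0.78 and 0.76 (412, 407 and 462 miRNAs). Pearson's r of the log10 UMIs was 0.91, 0.90 and 0.89 for members and 0.90, 0.91 and 0.90 for other miRNAs in the same order, so members were not above the others by both measures. With at least 30 UMIs in both libraries, rho between libraries 2 and 3 was 0.68 (23 members), and between libraries 1 and 2 it was 0.90 (22 members). These coefficients are across miRNAs of the same libraries, which are no independent replicates, and are given without a test.

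Shares were then compared between libraries by Fisher's exact test (two-sided, Benjamini-Hochberg adjusted over all miRNAs listed in both libraries, threshold 0.05). The test asks whether 2 libraries differ by more than counting error and says nothing of a condition. Of the 54 members listed in libraries 1 and 2, 49 had a lower share in library 2, where 73.2% of all 466 miRNAs tested were called lower. None was called higher, beside 9.44% of all miRNAs, and without adjustment the count was also 0 by Fisher's exact test. All 54 ratios lay under 1 with a median of 0.323, beside 0.373 for all miRNAs tested. The listing minimum of 11 UMIs is a share of 0.0142% in library 1 but 0.0029% in library 2. Members scarce in library 2 could therefore only have a ratio under 1 and could not be called higher, so their direction is no result. With TMM and DESeq2 scaling of the totals, 4 and 5 members were called higher. The percent called over all miRNAs was not taken under these scalings. Between libraries 2 and 3, 48 of 59 members were higher in library 3 (68.3% of all 521 miRNAs). None was lower in library 3, with or without adjustment (7.49% of all). Here too, members scarce in library 2 could only be higher in library 3, where the listing minimum is a share of 0.0108%. With TMM or DESeq2 scaling 7 were lower in library 3, again without a percent over all miRNAs. Between libraries 1 and 3, 14 of 53 were lower in library 3 (12.8% of all 460 miRNAs) and 4 were higher (13% of all).

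These counts move with the denominator. Against all mature miRNA and Rfam UMIs, 20 of 54 members were lower in library 2 than in library 1 (23.2% of all miRNAs) and 1, miR-12030, was higher (23.4% of all), and the median ratio was 0.737 for members and 0.851 for all miRNAs. Between libraries 1 and 3, 3 of 53 members were then lower in library 3 (2.83% of all miRNAs) and 9 were higher (33.7%). Between libraries 2 and 3, 23 of 59 were higher in library 3 (38% of all) and 5 were lower (16.7%). The share of mature miRNA UMIs and the share of all UMIs gave opposite calls for miR-11976 and miR-11975 between libraries 2 and 3, higher in library 3 by the first and lower by the second. MiR-12030 was lower in library 2 than in library 1 by the first (ratio 0.69, adjusted p = 0.0048 by Fisher's exact test) and higher by the second (ratio 1.58, adjusted p = 0.00054).

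Only a part of the members was called the same way with every denominator and scaling that was applied. Between libraries 2 and 1 these were 11 of 54, all lower in library 2. By share of the mature miRNA UMIs, this was the only direction open to members scarce in library 2. Between libraries 3 and 1, 3 of 53 were lower and 4 higher in library 3, and 14 of 59 were higher in library 3 than in library 2. Calls in both directions fell on 4 members between libraries 2 and 1 and on 2 between libraries 3 and 2. The members below were picked for this constancy, which was not counted over all miRNAs. The members miR-11977, miR-11987, miR-12011 and miR-12019 were higher in library 3 than in both other libraries. MiR-12011 had a share of 0.0479% in library 1, 0.0113% in library 2 and 0.114% in library 3, a 10.1-fold difference between libraries 3 and 2 (adjusted p = 1.8e-42, Fisher's exact test) and a 2.37-fold difference between libraries 3 and 1 (adjusted p = 2.3e-05, Fisher's exact test). MiR-12019, in no annotated gene, had 21, 29 and 74 UMIs and a 9.33-fold difference between libraries 3 and 2. MiR-11977 differed 5.31-fold and miR-11987 4.26-fold between the same libraries.

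The members miR-11981, miR-11989, miR-11996, miR-12003 and miR-12058 were lower in library 2 than in both other libraries by every denominator and scaling. MiR-12003, within HAPSTR1, a gene of the stress response, had 35, 20 and 35 UMIs in libraries 1, 2 and 3, and miR-12058, in no annotated gene, had 31, 17 and 37. Their share ratios between libraries 2 and 1 were 0.12 and 0.11, the lowest of all members listed in every library together with 0.13 for miR-12052, which had 33, 20 and 21 UMIs and lies within the deubiquitinase gene USP42. Each had so few UMIs in library 2 that its share could only be lower there, given the listing minimum in library 1. At the other end stood miR-12056, with 20, 74 and 33 UMIs, within PTPA, an activator of protein phosphatase 2A, and miR-12059, with 11, 34 and 15 UMIs, within FLOT2, which encodes the membrane scaffold protein flotillin-2. Their shares in library 2 were 0.77 and 0.64 of those in library 1 and did not pass the test (adjusted p = 0.30 and 0.26, Fisher's exact test). MiR-12030 lay between them with 0.69 and was called lower in library 2 by share of the mature miRNA UMIs (adjusted p = 0.0048, Fisher's exact test). Against all mature miRNA and Rfam UMIs it was called higher there, as given above.

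The members miR-11976, miR-12048 and miR-11988 were lower in library 3 than in library 1 with every denominator and scaling applied to them. MiR-11988, in no annotated gene, had 48, 58 and 23 UMIs and a share ratio of 0.36 between libraries 3 and 1 (adjusted p = 0.00033, Fisher's exact test). For miR-12048 this ratio was 0.44.

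The abundant members, like other cattle miRNAs of high number, had lower UMI ratios between libraries 2 and 1 than most miRNAs of like abundance. Library 2 had 4.83 times the mature miRNA UMIs of library 1 and 2.12 times its mature miRNA and Rfam UMIs. The UMI ratio between libraries 2 and 1 had a median of 1.56 over the members (n = 54), and the highest ratio of any member was 3.70, below the ratio of the mature miRNA totals. Members scarce in library 2 could not exceed that ratio of totals, since listing in library 1 needs at least 11 UMIs. For all other miRNAs the median was 1.84 (n = 412) with a highest value of 14.1. The low ratio was not particular to the members, since the median was 1.39 for the names from miR-2286 to miR-2489 and from miR-2881 to miR-2904 (n = 120) and 1.60 for miR-2284 and miR-2285 (n = 27). Abundance was then held alike by classes of the UMI count in library 3, which is outside the ratio, a choice made after seeing the data. At 11 to 29 UMIs the median ratio was 1.29 for 25 members and 1.51 for 156 other miRNAs, and at 30 to 99 UMIs it was 1.81 for 16 members and 1.94 for 149 others. At 100 UMIs or more the medians stood further apart, at 1.70 for 10 members and 5.05 for 79 others.

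The 10 members with at least 100 UMIs in library 3 ran from 1.04 for miR-11989 to 2.37 for miR-12023. Of the 79 other miRNAs, 65 lay above this range. The 7 members with 100 to 299 UMIs had a median of 1.66 beside 4.09 for 47 others, and the 3 members with 300 UMIs or more had a median of 2.27 beside 6.10 for 32 others, so the abundant members stood lower in both classes. Among these abundant miRNAs, the 15 named miR-2284 to miR-2489 or miR-2881 to miR-2904 had a median of 2.697, and 6 of them lay at or below the highest member. The remaining 64 had a median of 5.62. These medians are descriptions of 2 libraries, and their difference was not tested.

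**Figure D4:**
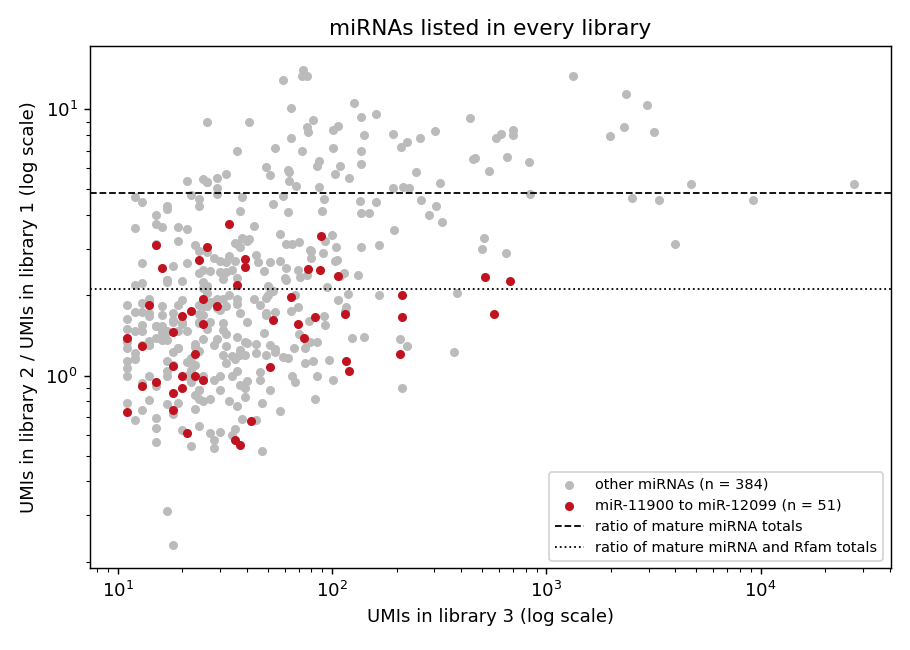
Ratio of UMIs between libraries 2 and 1 against the UMIs in library 3, both on log axes, for the 51 members (red) and the 384 other miRNAs (grey) listed in every library, with the ratio of mature miRNA totals (4.83, dashed) and of mature miRNA and Rfam totals (2.12, dotted). All red points lie under the dashed line, while many abundant grey points lie above it. Members scarce in library 2 could lie nowhere else, since listing in library 1 needs at least 11 UMIs.

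Between libraries 1 and 3 the members moved less. The UMI ratio between libraries 3 and 1 had a median of 1.02 for members (n = 53) and of 1.24 for other miRNAs (n = 407), where the mature miRNA totals had a ratio of 1.32. The spread between libraries was also estimated as the common biological coefficient of variation, with edgeR and TMM scaling, which sets the libraries to a common level by the bulk of the miRNAs. It was 33.9% for the 51 members listed in every library and 46.1% for the 384 other miRNAs. With the library totals and no TMM the direction turned, with 62.9% for members and 57.4% for others, so the members varied less only after scaling. Without library 2 it was 29.6% for members and 30.7% for others, so the 2 sets were closer once library 2 was left out. By single members, the coefficient of variation of the share ran from 19.4% to 92.7% with a median of 56.7%, and 50 of the 51 members had their lowest share in library 2, beside 298 of 384 other miRNAs (77.6%). The listing minimum of 11 UMIs is a share of 0.0142%, 0.0029% and 0.0108% in libraries 1, 2 and 3. Members scarce in library 2 were therefore bound to be lowest there, so the count of 50 cannot be read as a trait of the members. It moved with the denominator, as 35 of the 51 members were lowest in library 2 per 1000000 mature miRNA and Rfam UMIs, 9 in library 1 and 7 in library 3. The minimum bears on this scale too. Per 1000000 mature miRNA and Rfam UMIs the median coefficient of variation was 35.5%, and it was lower than that of the share for 46 of the 51 members.

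Most of these miRNAs lie inside genes that encode proteins. In the RefSeq gene table of the cattle assembly ARS-UCD2.0, 78 of the 80 names were matched by name to an annotated miRNA gene, and the matched genes were 45 to 90 bases long with a median of 60. Of the 78, 63 (80.8%) lie within a protein-coding gene, 3 within another kind of gene only and 12 within none. For the other listed miRNAs, 431 of 651 matched names (66.2%) lie within a protein-coding gene, and the difference was not tested. Members within protein-coding genes held 90.6%, 89.8% and 86.6% of the group's UMIs in libraries 1, 2 and 3. The table gives no strand or exons, so whether a miRNA shares the strand of its gene, or lies in an intron, exon or UTR, was not analysed here.

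A few of the 63 members within protein-coding genes lie in genes known from the lactating mammary gland or from vesicles. MiR-12061, with 14, 38 and 24 UMIs in libraries 1, 2 and 3, lies within B4GALT1, the galactosyltransferase that forms lactose synthase together with alpha-lactalbumin. With GPAM (miR-11981), which serves the synthesis of milk fat, and FLOT2 (miR-12059), this makes a small set that was picked for the genes after the values were seen. Such a set shows no theme of the group. Outside this set, miR-12004, with 21 and 11 UMIs in libraries 1 and 2 and no listed count in library 3, lies within SELENOP, the selenium transport protein. Also outside it, miR-12010, with 36, 58 and 53 UMIs, lies within HM13, the signal peptide peptidase. The levels of these host genes were not measured in these data.

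At the low end, miR-12045 and miR-12053 were each listed in library 3 only, with 34 and 30 UMIs. An unlisted name had at most 10 UMIs, so both were above the listing minimum in library 3 by more than the other members of a single library. MiR-12045 lies within ITSN1, an endocytic scaffold gene, and miR-12053 within IRS1, an adaptor of insulin signaling. Names with a letter suffix were rare. MiR-12002a had 11 UMIs in library 3 and miR-11986b, within the tight junction gene OCLN, had 12 in library 2, and neither was listed elsewhere. MiR-12005 is annotated in 2 gene copies, and PRICKLE1 is the only other gene that was found to hold either. Its 11 UMIs in library 3 cannot be assigned to 1 copy.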

How the data were processed

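Small RNA of BM-EVs was measured in 3 libraries of 1 group. For every library, the authors deposited a table of mature miRNAs and a table of Rfam sequences, both holding UMI counts that were not normalized. Adapters were trimmed and low-quality reads removed, and sequences were mapped first to miRBase, then to Rfam. FastQC, cutadapt 2.7 and Bowtie 1.2.2 are named in the notes of the submitters. Strand use, the genome build, the database versions and the treatment of multiple matches are not given in the sources used here, so members that resemble other sequences may share UMIs.

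The members and lists were chosen with earlier results of these data known. Shares were taken per library, with unlisted names as 0 in sums and means, and Wilson 95% intervals. Fisher's exact test (scipy 1.17.1) ran over the whole table, edgeR 4.0.16 gave TMM factors and dispersions, and DESeq2 1.42.0 gave size factors. Python 3.11.15, pandas 2.3.3, numpy 2.4.6, matplotlib 3.10.9 and R 4.3.3 were used. The Fisher test, the TMM scaling and the dispersion estimate were tested on simulated data. For the Fisher test and the TMM scaling these held counting error only, unlike the libraries here. They therefore say nothing of calls under the wider spread of these libraries. Named miRNAs were the 20 with the highest mean share, the 3 highest and 3 lowest share ratios of each library pair, letter-suffixed names, and names of 1 library with at least 30 UMIs. The part of this rule that used seeds was not applied, since sequences were not used here. A further miRNA that the rule names is not reported here. MiR-12004, miR-12005, miR-12010 and miR-12061 were named outside it after their values were seen. Rfam counts served only as a denominator.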

Additional observations from a re-analysis of the deposited data

How the results depend on the processing

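No paired analysis was possible because only 1 group exists. The classes of abundance were chosen after seeing the data. Against 3.95%, the summed share was 0.395% of mature miRNA and Rfam UMIs and 11.8% without the 20 miRNAs of highest mean share, miR-11976 among them, in numerator and denominator. It ranged from 3.28% (without library 1) to 4.86% (without library 2). The 80 listed names became 39 with at least 30 UMIs, and the 51 listed in every library became 33 with at least 20 UMIs and 20 with at least 30. In the order of mature miRNA and Rfam UMIs, TMM totals and DESeq2 totals, the members called lower in library 2 than in library 1 fell from 49 to 20, 16 and 11 and those called higher rose from 0 to 1, 4 and 5. Likewise those lower in library 3 than in library 1 went from 14 to 3, 9 and 7, those higher from 4 to 9, 5 and 7, those lower in library 3 than in library 2 from 0 to 5, 7 and 7, and those higher from 48 to 23, 14 and 15. Without the 20 miRNAs of highest mean share the last 2 counts were 4 and 23. With at least 30 UMIs in both libraries, fewer miRNAs were tested and the calls were 22 (lower, 2 against 1), 9 (lower, 3 against 1) and 19 (higher, 3 against 2). The percent of all miRNAs called was taken only for the shares of mature miRNA UMIs and of mature miRNA and Rfam UMIs. The other counts of members therefore cannot be set against the whole table. Spearman's rho with at least 30 UMIs in both libraries was 0.90 for libraries 1 and 2 and 0.68 for libraries 2 and 3. The coefficient of variation of members was 62.9% without TMM, above the 57.4% of other miRNAs, against 33.9% and 46.1% with it, and ranged from 29.6% (without library 2) to 39.6% (without library 1). The UMI ratio of summed members was 1.90 for libraries 2 and 1 against a median of 1.56, and 0.565 for libraries 3 and 2 against 0.778, or 0.610 with at least 30 UMIs. Except where fewer miRNAs were tested, the cause was not tested. Of 32 named miRNAs, all kept their mean share within 1 SD under TMM and DESeq2. All also did so with pooled UMIs and without any 1 library, but with 3 libraries of these depths no other outcome was possible. By contrast 26 moved further with mature miRNA and Rfam UMIs, 31 without the 20 miRNAs and 3 with entries under 30 UMIs as 0. The denominators with Rfam UMIs and without the 20 miRNAs differ in size from the main one, so those shares are on another scale. At 11 UMIs, a share has a large counting error.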

Other observations

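The RefSeq gene table of ARS-UCD2.0 holds 95 names of this number range in 96 genes, and 17 of these names were listed in no library, so that each had at most 10 UMIs in every library. Of the near-namesakes, miR-11986 and miR-11986c were unlisted while miR-11986b had 12 UMIs in library 2, and miR-12002b was unlisted while miR-12002a had 11 UMIs in library 3. These counts lie at the listing minimum, so the members of each set cannot be ranked. Another pair of names, miR-12022 and miR-12024, was listed but not matched to a gene in the table. MiR-12024 had 24 UMIs in library 1, 16 in library 3 and no listed count in library 2, the deepest library, and miR-12000, within the calcium channel gene CACNA1A, had 20 UMIs in library 1 and 16 in library 3 with none listed in library 2. They were the only 2 members listed in libraries 1 and 3 but not in library 2, and they were named after their values were seen.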
